A study of Mus musculus with 32 samples.

Results

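The genes described here are 33 genes of microglia and macrophages, chosen by name, and every probe set that the array's annotation assigns to them. Of these, 32 genes had at least 1 probe set, 49 probe sets in all out of 22626 tested. P2ry13 was not analysed here. Messenger RNA was measured with Affymetrix mouse expression arrays in medulla and midbrain. The mice were controls or lacked the cholecystokinin B receptor gene Cckbr (KO mice), and were either sham-operated or given CCI (chronic constriction injury), a model of neuropathic pain made by loose ligatures around the sciatic nerve. This gave 8 groups of 4 arrays: control sham, control CCI, KO sham and KO CCI, each in medulla and midbrain, from 16 animals of which each gave both regions. The strain, age, kind of Cckbr allele and time since operation are not stated in what was used here.

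Microglia are the resident macrophages of the brain. Csf1r, the receptor for Csf1 and Il34, keeps them alive, Cx3cr1 receives the neuronal ligand Cx3cl1, and P2ry12 senses nucleotides released by damaged cells. The transcription factor PU.1, encoded by Spi1, sets their identity, and the adaptors Tyrobp and Fcer1g carry the signals of Trem2 and of Fc receptors. Microglia are also the main source in brain of C1q, the recognition component of the classical complement cascade. After peripheral nerve injury they are known to react in the spinal cord, where many of the injured fibres end. The medulla and midbrain hold centres of descending pain control.

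None of the microglial genes passed the test for genotype or for CCI in either region. Of all probe sets on the array, 0% passed for CCI and at most 0.053% for genotype. A count of 0 is therefore not particular to these genes. For most of the 34 brighter probe sets of these genes, the 95% interval of each effect stayed within 1.5-fold of no change. Fewer did so for the interaction of genotype and CCI. The clearest difference among the microglial genes was between regions. Lcp1, which encodes the actin-bundling protein L-plastin of leukocytes, was 1.80-fold lower in midbrain than in medulla by its brighter probe set. The complement, receptor and adaptor genes were not called between regions. In tissue RNA, fewer cells of a type and less RNA per cell cannot be told apart.

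Several facts of the whole series bear on these values. Cckbr was between 122 and 200.2 intensity units in control arrays and between -1.49 and 24.1 in KO arrays, so that the arrays followed their labels. Array medians lay between 91.1 and 100.1, and 2.15% of values were at or below 0. Hox genes of the hindbrain went with the region labels, 9 of 10 probe sets lower in midbrain, against 11% of all probe sets. So did midbrain genes, 5 of 6 higher, against 10.5% of all. Both lists were chosen after the values were seen and are not an independent check of the labels. The array of KO sham midbrain 2 stood apart in the 3' to 5' signal ratio of Actb, a sign of RNA integrity, 1.60 as a log2 ratio, where no other array exceeded 0.78. KO sham medulla 3 stood apart in its values at or below 0, 4.57% of them, where no other array exceeded 3.16%. The sample descriptions carry an array code, here the lower code (14 arrays), the higher code (16 arrays) and a separate code on both arrays of control sham 1. What it stands for was not stated, and each group but control sham held 2 arrays of either code.

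Levels are intensities in array units. Differences are log2 differences after 16 was added to each value, from limma, with an adjusted p (Benjamini-Hochberg over all probe sets tested) under 0.05 counted as called. Of the 49 probe sets, 34 lay above the dimmest 33.3% of the array. Ptprc, Itgam, Mrc1, Spi1, Cybb and Cst7 were measured only by probe sets in that dimmest 33.3%, so that a change in them would be understated. Probe sets whose names end in _x_at or _s_at, among them those of C1qb and Laptm5 below and some of Fcgr2b, can also bind related transcripts. The members and gene lists were chosen with earlier results of these data known.

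For the effect of the Cckbr deletion, averaged over both operations, 0 of 49 member probe sets were called in medulla, where 0.053% of all probe sets were called, and 0 of 49 in midbrain, where 0.0309% were. Within sham mice the count was 0 in each region (all probe sets 0.0133% in each), and within CCI mice it was 0 in each (0.00442% in medulla and 0.00884% in midbrain). For CCI against sham, 0 of 49 were called in control mice and 0 of 49 in KO mice, in medulla and in midbrain, and the same held for the genotype by CCI interaction; for these comparisons 0% of all probe sets were called. At an unadjusted p under 0.05, limma counted 1 member probe set for genotype in medulla (2.04%, against 3.36% of all probe sets) and 5 in midbrain (10.2%, against 7.49%). Within sham mice the genotype counts were 2 in medulla (4.08%, against 3.81%) and 2 in midbrain (4.08%, against 8.47%), and within CCI mice 0 in medulla (2.44% of all) and 5 in midbrain (10.2%, against 4.96%). For CCI in control mice it counted 2 in medulla (4.08%, against 2.80%) and 2 in midbrain (4.08%, against 3%). In KO mice CCI gave 1 in each region (2.04%, against 4.24% in medulla and 8.23% in midbrain). The interaction of genotype and CCI gave 2 in medulla (4.08%, against 2.67%) and 0 in midbrain (5.48% of all). In midbrain CCI mice the 5 were 4 higher and 1 lower in KO mice, and the other shares lay near or below the background.

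The intervals bound the size of these effects on the log2 scale after 16 was added, where the change of dim genes is understated. For genotype averaged over operation, the 95% interval of all 34 brighter member probe sets stayed within 1.5-fold of no change in medulla, and that of 33 of 34 did so in midbrain. For CCI in control mice, 28 of 34 intervals in medulla and 31 of 34 in midbrain stayed within 1.5-fold, and all 34 within 2-fold in each region. For CCI in KO mice the counts within 1.5-fold were 31 in each region, and again all 34 within 2-fold. The interaction was measured less precisely, with 19 of 34 in medulla and 17 of 34 in midbrain within 1.5-fold. The median difference of the 49 probe sets lay between -0.04 and 0.03 in these 12 comparisons, and that of all probe sets between -0.01 and 0.01.

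**Figure D1:**
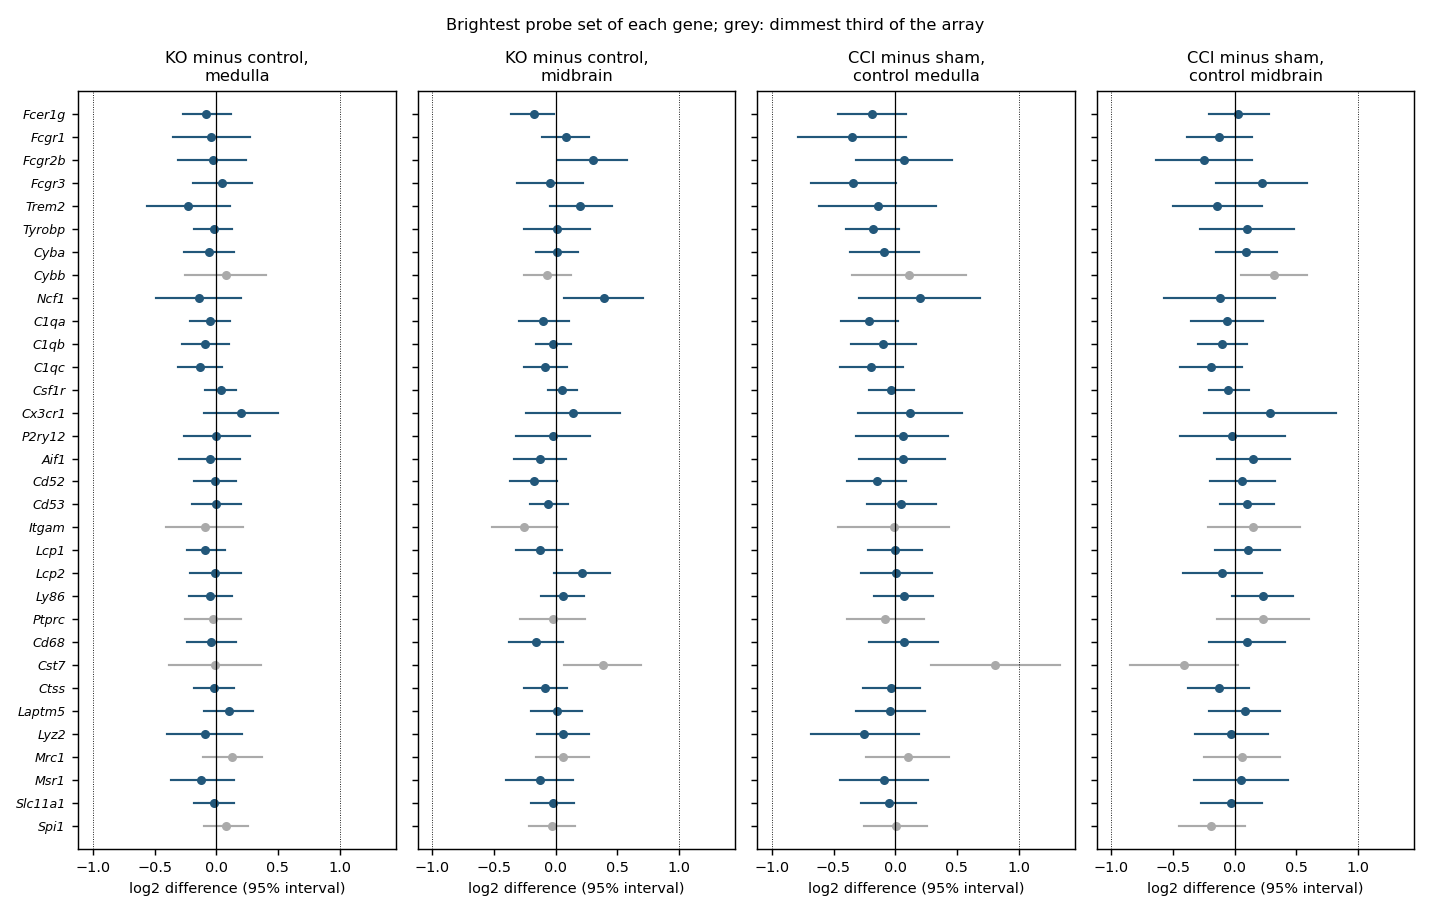
The horizontal axis is the log2 difference, KO minus control averaged over operation or CCI minus sham in control mice, and each row is the brightest probe set of 1 of the 32 genes; points are limma estimates, bars are 95% intervals, dotted lines mark 2-fold, and grey rows belong to the dimmest 33.3% of the array. The points crowd around 0 in all 4 panels, and the point farthest from 0 is Cst7 in control medulla, at 0.81, a dim probe set.

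Among the complement genes, C1qa, a chain of C1q, gave the brightest probe set. In medulla its level was 734, 591, 616 and 521 in control sham mice, 517, 637, 497 and 505 in control CCI mice, 600.2, 571, 497 and 557 in KO sham mice, and 528, 523, 602 and 567 in KO CCI mice. In midbrain it was 723, 579, 561 and 534 in control sham, 522, 569, 661 and 574 in control CCI, 524, 365, 559 and 689.8 in KO sham, and 531, 552, 589 and 627 in KO CCI mice. The groups overlapped in both regions, with control sham 1 highest of its group in each region and KO sham midbrain 2 lowest of all 32 arrays. The difference for CCI in control medulla was -0.21 (SE 0.11), with an adjusted p of 1 from limma. The 5 probe sets of the 3 C1q genes had differences between -0.21 and -0.08 for CCI in control medulla, between -0.03 and 0.13 for CCI in KO medulla, and none was called.

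Among the microglial receptors Csf1r, Cx3cr1 and P2ry12, Csf1r was the brightest. In medulla it was 830.4, 766, 706 and 679.8 in control sham mice, 713, 831, 683 and 752 in control CCI mice, 822, 776, 808 and 721 in KO sham mice, and 743, 784, 776 and 695 in KO CCI mice. In midbrain it was 822, 789, 716 and 748 in control sham, 713, 764, 805 and 735 in control CCI, 877, 723, 701 and 865 in KO sham, and 755, 846, 809 and 768 in KO CCI mice. All groups overlapped, and Csf1r was among the most precisely measured members. Genotype averaged over operation differed by 0.04 (SE 0.06) in medulla and 0.05 (SE 0.05) in midbrain, CCI in control mice by -0.03 (SE 0.08) and -0.05 (SE 0.08), and none was called (limma's adjusted p between 0.856 and 1).

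P2ry12, named after its values were seen, had the largest CCI difference among the brighter members. In midbrain it was 191, 217, 205 and 195 in control sham mice, 217, 201, 174 and 221 in control CCI mice, 226, 83.6, 221 and 153 in KO sham mice, and 249, 269, 234 and 224 in KO CCI mice. KO sham midbrain 2 and 4 were low, and the other 2 KO sham arrays lay near the lower edge of the KO CCI range. CCI against sham in KO midbrain was 0.53 (SE 0.20, adjusted p = 0.601 in limma) and not called. With single arrays left out it lay between 0.28, without KO sham midbrain 2, and 0.69. In medulla P2ry12 was 163, 202, 172 and 196 in control sham, 194, 226, 169 and 195 in control CCI, 248, 231, 120.4 and 142 in KO sham, and 200.6, 239.8, 208 and 159 in KO CCI mice. There the CCI difference was 0.11 (SE 0.18) in KO mice and 0.06 (SE 0.18) in control mice, and the groups overlapped.

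The receptor for fractalkine, Cx3cr1, also named after its values were seen, varied widely within groups. In medulla its brighter probe set read 120.4, 189.7, 149 and 149 in control sham mice, 185, 177, 145 and 169 in control CCI mice, 227, 246, 145 and 118 in KO sham mice, and 220.1, 239, 181 and 145 in KO CCI mice. In midbrain it read 133, 229.6, 124 and 119.9 in control sham, 208, 191, 164 and 178 in control CCI, 245, 216, 107 and 203 in KO sham, and 209, 249, 156 and 129.8 in KO CCI mice. In all 8 groups every array of the lower code lay above every array of the higher code, as for 0.283% of all probe sets. Genotype averaged over operation was 0.20 (SE 0.14) in medulla and 0.14 (SE 0.18) in midbrain, and neither was called (limma's adjusted p 1 and 0.886).

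**Figure D2:**
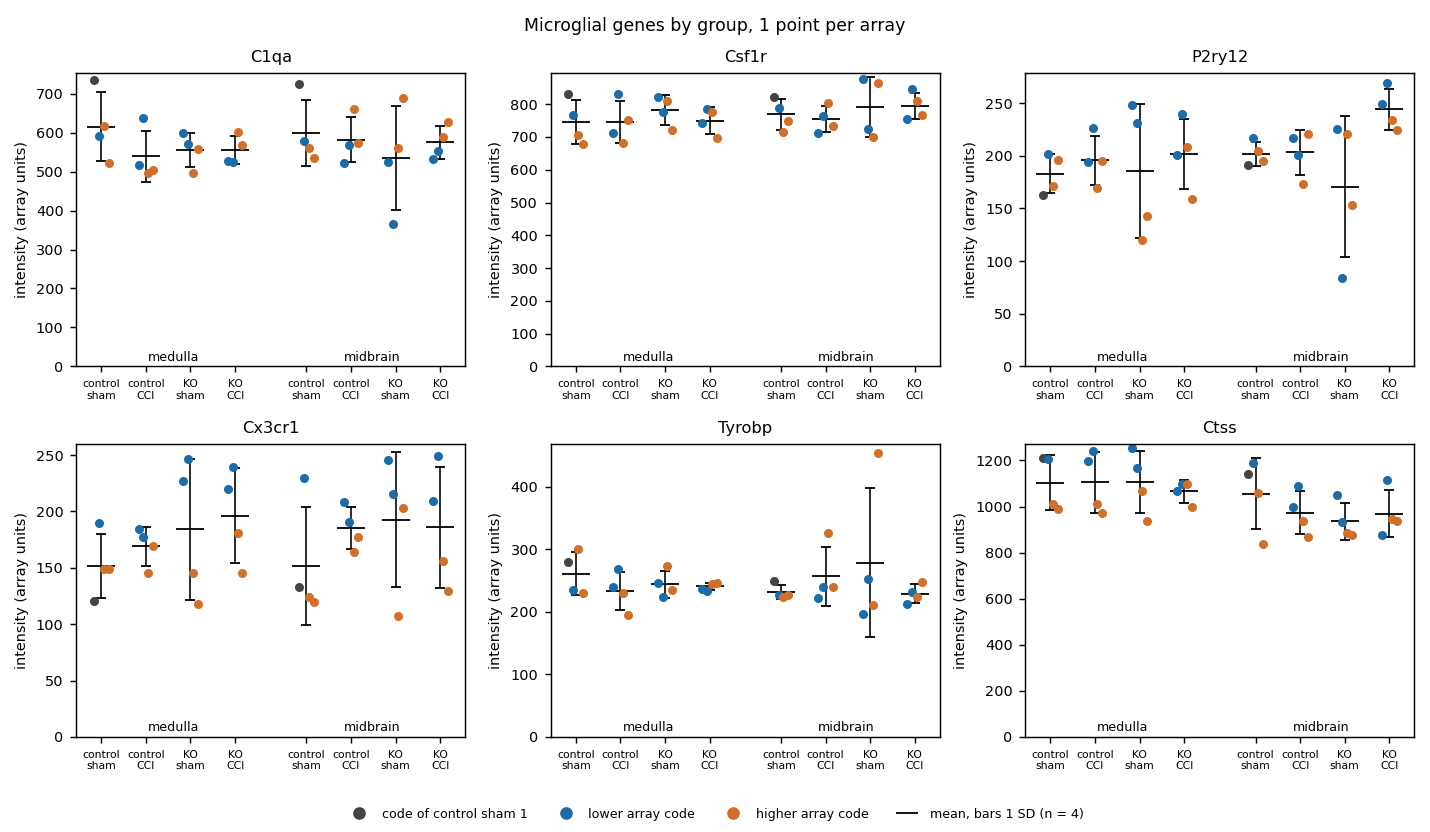
The vertical axis is the deposited intensity in array units, 1 point per array (32 per gene), coloured by the array code, with the mean and 1 SD (n = 4) of each of the 8 groups, for C1qa, Csf1r, P2ry12, Cx3cr1, Tyrobp and Ctss. All groups overlap for C1qa and Csf1r, while for Cx3cr1 and Ctss blue points (lower code) lie above orange points (higher code) in most groups.

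Tyrobp, the DAP12 adaptor through which Trem2 signals, gave the brightest probe set of the adaptors and their receptors. In medulla it was 279, 234, 299.9 and 231 in control sham mice, 239.9, 268, 229.98 and 195 in control CCI mice, 246, 223, 274 and 234 in KO sham mice, and 237, 234, 245 and 247 in KO CCI mice. In midbrain it was 249, 227, 224 and 228 in control sham, 222, 239, 326 and 239 in control CCI, 196, 253, 211 and 454 in KO sham, and 212, 232, 224 and 248 in KO CCI mice. KO sham midbrain 4 was the highest of all 32 arrays, and the groups otherwise overlapped. Genotype averaged over operation differed by -0.02 (SE 0.07) in medulla and 0.01 (SE 0.12) in midbrain. Of the 10 probe sets of Tyrobp, Fcer1g, Trem2, Fcgr1, Fcgr2b and Fcgr3, the one with the lowest p for genotype in midbrain was a probe set of the inhibitory Fc receptor Fcgr2b, 0.33 (SE 0.10), whose adjusted p was 0.516.

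The transcription factor Spi1 was measured by 1 dim probe set. In medulla it read 29.8, 31.3, 29.5 and 30.3 in control sham mice, 34.7, 30.9, 23.9 and 30.7 in control CCI mice, 40.2, 36.5, 19.2 and 31.4 in KO sham mice, and 31.4, 36.9, 35.4 and 30.01 in KO CCI mice. In midbrain it read 38.4, 34.3, 37.2 and 46.5 in control sham, 40.2, 27.3, 20.3 and 34.96 in control CCI, 37.04, 33.2, 37.1 and 47.5 in KO sham, and 26.4, 33.4, 33.9 and 34.1 in KO CCI mice. The groups compared with each other overlapped. Its genotype difference was 0.08 (SE 0.08) in medulla and -0.03 (SE 0.09) in midbrain. Of the 3 genes of the NADPH oxidase, which makes superoxide during phagocytosis, Cyba, the small membrane subunit, gave the brightest probe set. In medulla Cyba read 82.2, 71.6, 79.96 and 48.6 in control sham mice, 75.3, 65.7, 58.2 and 59.5 in control CCI mice, 68.4, 59.8, 69.7 and 63.8 in KO sham mice, and 68.7, 61.97, 57.5 and 54.4 in KO CCI mice. In midbrain it read 80.4, 68.4, 61.8 and 69.6 in control sham, 74.5, 75.99, 82.5 and 62.5 in control CCI, 71.2, 90.5, 71.4 and 71.2 in KO sham, and 81.4, 65.3, 66.1 and 76.9 in KO CCI mice. The groups overlapped, with genotype differences of -0.06 (SE 0.09) and 0.01 (SE 0.08). Cybb, its partner in the membrane, read 10.5 on average and was near background. Ncf1, the cytosolic organiser subunit p47phox, named after its values were seen, had the larger estimates. In midbrain its brighter probe set read 39.4, 72.4, 79.6 and 57.2 in control sham, 55.04, 58.9, 39.6 and 57.8 in control CCI, 124, 59.7, 95.8 and 46.9 in KO sham, and 73.8, 85.2, 98.2 and 79.5 in KO CCI mice. All KO CCI arrays lay above all control CCI arrays, as for 2.05% of all probe sets, while the sham groups overlapped. Its genotype difference in midbrain was 0.39 (SE 0.15, limma's adjusted p 0.585) averaged over operation and 0.48 (SE 0.21, adjusted p 0.967) in CCI mice. In medulla it was -0.14 (SE 0.16), the genotype by region interaction was 0.53 (SE 0.23, limma's adjusted p 1), and the dimmer probe set of Ncf1 differed by -0.16 (SE 0.09) in midbrain; none was called.

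Of the genes of lysosomes and phagocytosis, Ctss, a cysteine protease that degrades antigen and cleaves Cx3cl1, was the brightest. In medulla it was 1209, 1205, 1012 and 989.8 in control sham mice, 1197, 1239, 1011 and 970.2 in control CCI mice, 1252, 1167, 1068 and 939 in KO sham mice, and 1069, 1096, 1099.9 and 996 in KO CCI mice. In midbrain it was 1139, 1188, 1059 and 838 in control sham, 997, 1088, 936 and 868 in control CCI, 1049, 931, 887 and 875 in KO sham, and 877, 1117, 944 and 937 in KO CCI mice. Groups overlapped for genotype and for CCI in both regions. CCI in control mice differed by -0.03 (SE 0.11) in medulla and by -0.13 (SE 0.12) in midbrain. Cst7, cystatin F, which is known to be induced in reactive microglia, read 5.33, 10.05, 4.15 and -7.47 in medulla of control mice after sham and 25.3, 23.5, 8.61 and 22.9 after CCI. That difference, 0.81 (SE 0.25), had an adjusted p of 1 in limma and lies in values near background, where control midbrain gave 4.51, 3.03, 16.9 and 9.44 in sham and -4.03, -0.668, -2.43 and 7.63 in CCI mice. Among the other phagocytosis genes, Cd68 group means lay between 42.6 and 53.4, Lyz2 between 78.8 and 103.6 and Msr1 between 65.2 and 89.2, and none was called.

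Of the leukocyte surface, adhesion and signalling genes, Ly86 (MD-1, a partner of the Toll-like receptor relative Cd180) was the brightest. In medulla it read 213, 236, 224 and 165 in control sham mice, 252, 254.9, 186 and 212 in control CCI mice, 222, 217, 189.9 and 178 in KO sham mice, and 231, 223, 216 and 197 in KO CCI mice. In midbrain it read 205, 214, 216 and 138 in control sham, 231, 224, 227 and 233 in control CCI, 187, 212, 197 and 234 in KO sham, and 218, 265, 216 and 215 in KO CCI mice. All 4 control CCI midbrain arrays lay above the control sham ones, as for 1.54% of all probe sets, and CCI in control midbrain differed by 0.23 (SE 0.12, limma's adjusted p 1). Aif1, the widely used microglial marker Iba1, had group means between 50.5 and 60.7, Cd53 between 96.0 and 109, Cd52 between 43.1 and 55.2 and Itgam (CD11b) between 31.9 and 45.8. The lowest p of any member for genotype in sham medulla belonged to a dim probe set of Lcp2, an adaptor of ITAM signalling. Its arrays read 24.6, 27.5, 23.7 and 22.8 in medulla of control sham and 17.9, 8.91, 9.24 and 13.96 in KO sham medulla. These groups did not overlap, which 0.888% of all probe sets showed in that direction; the difference of -0.50 (SE 0.11) had an adjusted p of 0.649 in limma, and the brighter probe set of the same gene read between 48.8 and 54.1 in control sham and between 38.4 and 64.2 in KO sham medulla.

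Genes outside the members were examined in the same way. Of 36 probe sets of 20 other microglia genes, 0 were called for genotype, CCI or their interaction in either region by limma, and at most 3 had an unadjusted p under 0.05 in any of the 12 comparisons, in which between 2.44% and 8.47% of all probe sets did. A further list held 40 probe sets of genes known from activated glia, most of them microglial, with 2 probe sets of the astrocyte gene Gfap. Of these the endotoxin receptor Tlr4 alone was called for genotype in medulla, 0.58 higher in KO mice (SE 0.09, limma's adjusted p 0.0169). That is 1 of 40, where 0.053% of all probe sets were called. The Tlr4 difference in midbrain, 0.91 (SE 0.15), was not called (limma's adjusted p 0.0637). Its probe set was dim, with a mean intensity of 28.1. At an unadjusted p under 0.05 the list counted up to 6 of 40 (15%), for genotype in sham midbrain, where 8.47% of all probe sets did, and 5 of 40 for genotype averaged over operation in midbrain, where 7.49% did. Among them was Cd14, the co-receptor of Tlr4, with 0.66 (SE 0.15, limma's adjusted p 0.304) in midbrain and 0.90 (SE 0.21, adjusted p 0.371) in sham midbrain, not called. No probe set of the lists for border-associated macrophages (11 probe sets), monocytes (11), granulocytes (9), lymphocytes (13) or red blood cells (5) was called in the 12 comparisons in limma, with at most 2 of a list at an unadjusted p under 0.05 in any of them. In lists this short that can exceed the background, as for 2 of 9 granulocyte probe sets for genotype in medulla (3.36% of all) and 2 of 11 of border-associated macrophages for genotype in midbrain (7.49% of all). The interactions of genotype and of CCI with region also gave 0 of 49 member calls, where 0% of all probe sets were called, with 2 member probe sets each at an unadjusted p under 0.05 (4.08%, against 3.8% and 2.16% of all).

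Midbrain was compared with medulla over all 32 arrays, in a fit that did not use the pairing of regions by animal. In 13 other settings, among them the animal as a block, the member count lay between 2 and 3. At an unadjusted p under 0.05 the regions differed in 5 of 49 (10.2%), against 31.6% of all probe sets. After adjustment 2 of 49 were called (4.08%), both lower in midbrain and both of Lcp1, where 21.5% of all probe sets were called, 11% lower and 10.5% higher. Among probe sets above the dimmest 33.3%, 2 of 34 member probe sets (5.88%) were called, against 28.5% of 15084. The median absolute difference was 0.04 for the 34 and 0.10 for all probe sets above the dimmest 33.3%. Marker lists of other cell types varied: 12 of 23 astrocyte probe sets, 12 of 19 of oligodendrocytes and 9 of 13 of neurons were called. Low counts were not particular to the members, since endothelial cells gave 1 of 12, monocytes 1 of 11, and border-associated macrophages (11), granulocytes (9) and lymphocytes (13) gave 0.

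Lcp1 is the member that set the regions apart. Its brighter probe set read 153, 133, 151 and 149 in medulla after control sham, 149, 149, 149.7 and 148 in control CCI, 106, 123, 140.3 and 158 in KO sham, and 145, 152, 152 and 131 in the KO CCI group. The midbrain arrays read 88.3, 71.7, 77.8 and 59.1 after control sham, 82.4, 80.8, 61.7 and 90.6 in control CCI, 60.7, 68.9, 62.4 and 82.9 in KO sham, and 67.7, 71.6, 71.9 and 69.7 in KO CCI mice. Every midbrain array lay below every medulla array, a separation that 0.725% of all probe sets showed in that direction. The means were 143 ± 13.5 in medulla and 73.02 ± 9.86 in midbrain (SD, n = 16 each), and midbrain was lower in 16 of 16 animals. The difference was -0.85 (SE 0.06, limma's adjusted p 3.52e-12).

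The second probe set of Lcp1 went the same way with more spread. It averaged 77.7 ± 15.3 in medulla and 48.2 ± 9.93 in midbrain (SD, n = 16 each), was lower in midbrain in 15 of 16 animals, and differed by -0.54 (SE 0.09, limma's adjusted p 6.67e-05). The ranges overlapped, since KO sham medulla 3 read 30.9 where the other medulla arrays read at least 63.98. Without that array, the one with the most values at or below 0, the differences were -0.84 and -0.60. Within the lower array code the differences of the 2 probe sets were -0.77 and -0.45, and within the higher code -0.93 and -0.65. For neither probe set was genotype or CCI called in any comparison. Choroid plexus markers moved with region too, 8 of 10 probe sets lower and 1 higher in midbrain. Their summed level was 1013 to 10989 in medulla and 370.5 to 5456 in midbrain. The higher probe set was that of Otx2, by 1.2 (SE 0.19, limma's adjusted p 1.65e-05). It is also counted among the midbrain genes above. With the 2 animals left out whose medulla was low in Ttr, a choroid plexus gene, the Lcp1 differences were -0.82 and -0.52. The animals kept are those with more Ttr in medulla, and the part of choroid plexus in the Lcp1 difference was not tested. Of the other leukocytes that make L-plastin, 0 probe sets of granulocytes (9), lymphocytes (13) and border-associated macrophages (11) were called between regions, and 1 of 11 of monocytes was, Vcan. Their summed levels were 284 to 490.4 in medulla and 330.4 to 552 in midbrain for granulocytes, and 203 to 442 and 225 to 512 for lymphocytes. Their part in the Lcp1 difference was not tested.

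**Figure D3:**
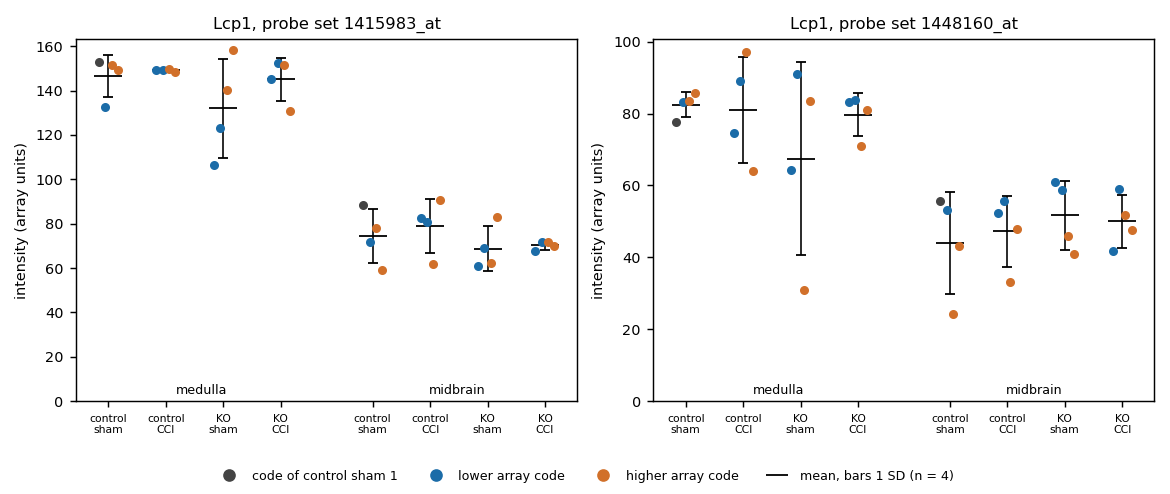
The vertical axis is the deposited intensity of the 2 Lcp1 probe sets, 1 point per array (32 each) coloured by array code, with mean and 1 SD (n = 4) in each of the 8 groups. The left panel separates the regions completely, 106 to 158 in medulla and 59.1 to 90.6 in midbrain; in the right panel 1 medulla array, at 30.9, falls into the midbrain range.

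The start regions of Lcp1, Cx3cr1 and Ctss, the members with the clearest differences between regions or array codes, are shown so that their make-up can be compared. RefSeq (GRCm38.p6) lists 2 start sites for Lcp1, and 26 of the 32 genes had an entry, with 29 start regions in all. Each sequence is the 250 bases before a start, on the strand of the gene, with matches to GGAAGT on either strand in capitals. This motif is the core bound by PU.1 and other ETS factors, and GAGGAAGT, searched as well, contains it. Which start is used in these tissues was not measured.
Lcp1, upstream start, chr14:75130873-75131122, plus strand: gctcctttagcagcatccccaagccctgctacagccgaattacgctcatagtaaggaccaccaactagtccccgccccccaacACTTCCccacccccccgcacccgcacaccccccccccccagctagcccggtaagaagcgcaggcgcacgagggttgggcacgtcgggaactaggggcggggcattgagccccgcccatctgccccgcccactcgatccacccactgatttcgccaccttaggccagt
Lcp1, downstream start, chr14:75136175-75136424, plus strand: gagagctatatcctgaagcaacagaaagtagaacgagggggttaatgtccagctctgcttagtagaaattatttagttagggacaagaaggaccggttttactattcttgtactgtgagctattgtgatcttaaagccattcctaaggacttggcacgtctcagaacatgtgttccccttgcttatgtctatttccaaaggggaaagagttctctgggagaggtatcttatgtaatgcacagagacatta
Cx3cr1, chr9:120068297-120068546, minus strand: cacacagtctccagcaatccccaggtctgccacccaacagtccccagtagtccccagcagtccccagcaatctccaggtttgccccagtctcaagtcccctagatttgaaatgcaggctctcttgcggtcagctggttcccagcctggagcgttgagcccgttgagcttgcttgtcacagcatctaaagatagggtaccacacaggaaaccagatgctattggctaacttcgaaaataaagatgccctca
Ctss, chr3:95526536-95526785, plus strand: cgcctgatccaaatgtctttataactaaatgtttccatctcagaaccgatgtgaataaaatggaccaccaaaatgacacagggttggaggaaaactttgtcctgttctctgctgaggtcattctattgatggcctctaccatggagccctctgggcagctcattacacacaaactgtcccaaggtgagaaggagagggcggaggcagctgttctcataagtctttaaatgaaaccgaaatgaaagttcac

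The 2 starts of Lcp1 differ in base composition. The upstream one is 66% G or C with 16 CpG, the most of the 29 member regions, and the downstream one is 41.6% G or C with 3 CpG, while Cx3cr1 and Ctss have 4 CpG each. The medians were 49.2% and 4 CpG for the members and 52.4% and 6 CpG for 32851 start regions of the table. GGAAGT occurred in the upstream region of Lcp1, 167 bases before the start, and in neither the downstream region nor those of Cx3cr1 and Ctss. It was found in 12 of 29 member regions (41.4%), in 11 genes that include C1qb, C1qc, P2ry12, Laptm5 and Fcgr1, and in 19.7% of all regions. The longer GAGGAAGT was found in 1 member region, that of C1qc (3.45%), and in 2.44% of all regions. A match is a description of these letters and not a bound site.

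Ctss lay at the threshold between regions. It averaged 1095 ± 104 in medulla and 983 ± 109.6 in midbrain (SD, n = 16 each), was lower in midbrain in 14 of 16 animals, and differed by -0.15 (SE 0.06, limma's adjusted p 0.0556). With the animal as a block, since each animal gave both regions, it was called (adjusted p = 0.0142). P2ry12 was higher in midbrain in 13 of 16 animals (0.09, SE 0.10, adjusted p 0.584 in limma) and Cyba in 12 of 16 (0.13, SE 0.06, adjusted p 0.139), and neither was called. C1qa was lower in midbrain in 7 of 16 animals, Csf1r in 5, Tyrobp in 10 and Aif1 in 6, and the intervals of 32 of the 34 brighter probe sets stayed within 1.5-fold.

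**Figure D4:**
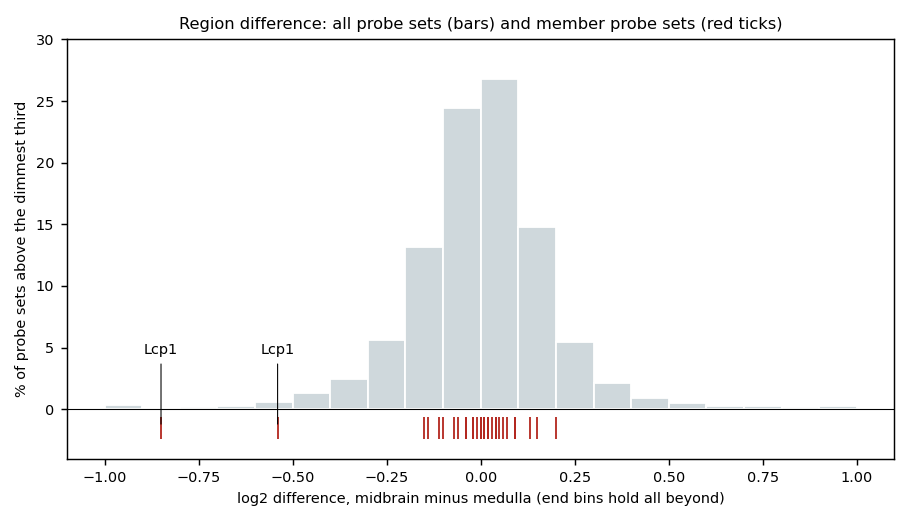
The horizontal axis is the log2 difference, midbrain minus medulla, from all 32 arrays; grey bars give the percentage of the 15084 probe sets above the dimmest 33.3% in each bin, and red ticks are the 34 member probe sets among them. The ticks lie near 0 except the 2 of Lcp1, at -0.85 and -0.54.

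Ligands and signalling partners of the members, many of them made by neurons, were also compared between regions. Of 33 probe sets of ligands and partners 16 (48.5%) were called, 14 of them higher in midbrain, where 21.5% of all probe sets were called and 10.5% were higher. Cx3cl1, the neuronal ligand of Cx3cr1, was 0.35 higher (SE 0.06, adjusted p = 2.51e-05) and Il34, a ligand of Csf1r, 0.39 higher (SE 0.08, adjusted p = 0.000684). Cd200, which restrains microglia through its receptor, was 0.37 higher (SE 0.05, adjusted p = 1.11e-06), and Cd47, the signal that restrains phagocytosis through Sirpa, was 0.31 higher (SE 0.07, adjusted p = 0.00173), by limma. Csf1, the other ligand of Csf1r, was lower in midbrain (log2 difference -0.17, SE 0.04, adjusted p = 0.00287). The receptors Cx3cr1 and Csf1r were not called between regions. Of 36 probe sets of other microglia genes 8 (22.2%) were called, against 21.5% of the whole array. Of these 7 were lower in midbrain, of Itgb5, Ctsz, Sall1 and Cd33 by 0.15 to 0.29, and 1 was higher, of Sparc by 0.10 (SE 0.03, adjusted p = 0.035 in limma). In the complement list 4 of 13 probe sets (30.8%) were called, 3 lower and 1 higher. The inhibitor Cd59a was lower in midbrain by both probe sets, -0.79 (SE 0.10) and -0.73 (SE 0.06), and Cd55, another inhibitor, by -0.43 (SE 0.08), while Cfp, properdin, which stabilises the alternative pathway convertase, was 0.27 higher (SE 0.09, limma's adjusted p 0.0258) at a dim level.

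The array code was compared after the data had been seen. The 16 arrays of the higher code were set against the 14 of the lower code, with group, and the animal as a random block. Of the members 4 of 49 probe sets (8.16%) were called, all lower in the higher code, where 7.93% of all probe sets were called and 4.02% were called lower. At an unadjusted p under 0.05 the count was 12 (24.5%), against 22.7% of all. Cx3cr1 differed by -0.50 (SE 0.08, limma's adjusted p 0.000309), Ctss by -0.21 (SE 0.04, adjusted p 0.00475), a C1qb probe set by -0.17 (SE 0.04, adjusted p 0.00629) and a Laptm5 probe set by -0.22 (SE 0.06, adjusted p 0.0298). Other probe sets of these genes were not called: Cx3cr1 gave -0.32 (SE 0.11, limma's adjusted p 0.0681), C1qb -0.09 and -0.16, and Laptm5 -0.02 and 0.09. In medulla Cx3cr1 averaged 212 ± 27.9 in the lower code (n = 7) and 149.98 ± 18.7 in the higher code (n = 8), and in midbrain 221 ± 21.3 and 148 ± 32.9 (SD). Fitted in medulla alone, 2 member probe sets were called, both of Cx3cr1, and in midbrain alone 0, while leaving out KO sham midbrain 2 gave 7. The genotype and CCI counts of the members stayed at 0 with the code as a block and within each code.

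Animals could be followed across regions. The code is shared by an animal's 2 arrays, and so is whatever else is common to 1 animal. After group means were removed, the brighter Cx3cr1 probe set in medulla and midbrain of 16 animals gave Pearson's r of 0.89 and Spearman's rho of 0.84, r of 0.86 without the 2 animals farthest from the median, and r of 0.84 over 14 animals with the code removed as well. The dimmer Cx3cr1 probe set gave r of 0.38 (rho 0.45), 0.17 without the 2 animals and 0.17 with the code removed. Ctss gave r of 0.77 (rho 0.77), which became 0.06 with the code removed, and the C1qb probe set above gave 0.81 (rho 0.86), which became 0.10. Of the other C1qb probe sets the brightest gave r of 0.60 (rho 0.45) and 0.88 with the code removed, and the dimmest 0.46 (rho 0.46) and 0.31. With the code removed, the 2 animals of a group and code have mirrored residuals. The 14 values are therefore not independent, and r over them is less certain than r over the 16 animals. Over the members, 12 of 49 probe sets (24.5%) had r above 0.5, against 23.7% of all, and the medians were 0.23 and 0.25.

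**Figure D5:**
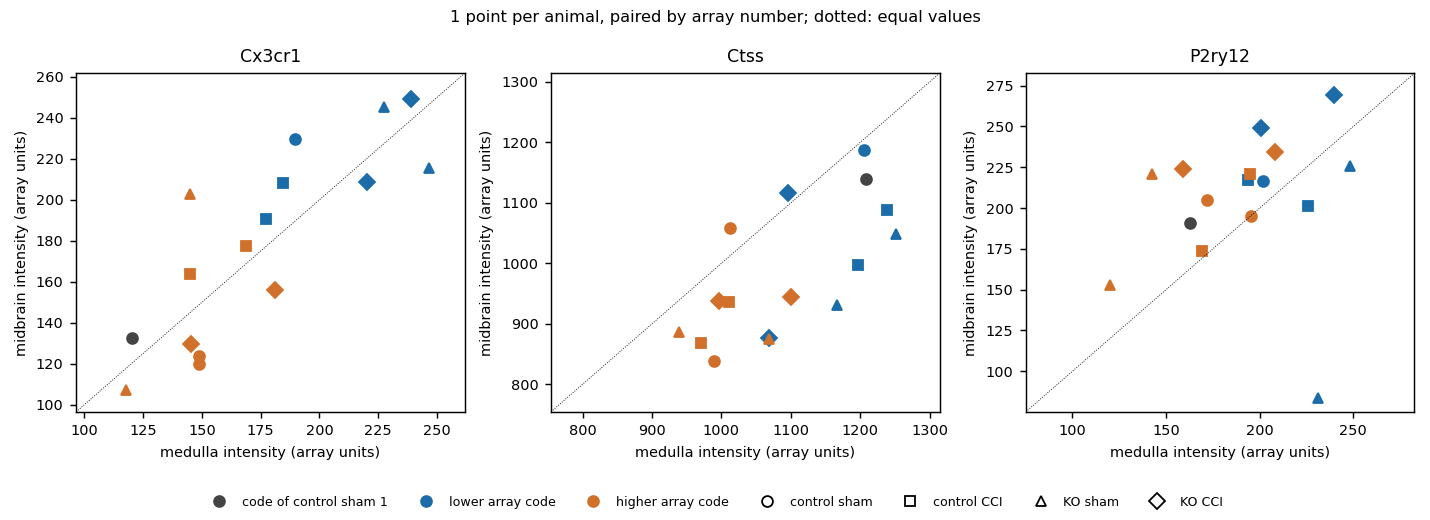
The axes are the deposited intensities in medulla (horizontal) and midbrain (vertical) of Cx3cr1, Ctss and P2ry12, 1 point per animal (16), coloured by array code and shaped by group; the dotted line marks equal values. For Cx3cr1 animals lie along the line, from 118 to 246 in medulla; for Ctss 14 of 16 animals lie below it; for P2ry12 KO sham midbrain 2, at 83.6, lies far below it.

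Pairs of microglial genes were compared over the arrays of a region. Over the 325 pairs of 26 genes above the dimmest 33.3%, and 16 arrays with group means removed, r exceeded 0.5 in 21.5% of pairs in medulla, against 10% of pairs of all probe sets above the dimmest 33.3%, and in 14.8% in midbrain, against 9.24%. With the code removed as well the shares were 12.9% against 16.4% in medulla and 20.3% against 16.5% in midbrain. Removing the code leaves fewer independent values, so these shares are not on the same footing as those before it. The median r of the member pairs was 0.15 in medulla and 0.09 in midbrain, and 0.01 and 0.02 with the code removed. C1qa and C1qc, chains of the same protein, gave r of 0.87 in medulla (rho 0.77) and 0.68 in midbrain (rho 0.67). Other pairs were as strongly opposed. P2ry12 and Msr1 gave -0.87 in medulla and -0.58 in midbrain, and Fcgr2b and Aif1 gave -0.51 and -0.88. Lcp1 and Cx3cr1 gave -0.66 in medulla and 0.20 in midbrain. P2ry12 and Cx3cr1 gave r of 0.86 in medulla (rho 0.86) and -0.08 in midbrain (rho 0.26). In midbrain P2ry12 was lowest, at 83.6, in KO sham midbrain 2, the array with the high Actb ratio, where Cx3cr1 read 216. In KO sham medulla both genes were higher in the lower array code, P2ry12 with 248 and 231 against 120.4 and 142. In the CCI groups of medulla the codes overlapped for P2ry12. The part of that array and of the code in these 2 values was not tested. These values share arrays and are given as a description.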

How the data were processed

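Total RNA (4 ug, TRIzol) was hybridised to Affymetrix mouse arrays, per the labels' protocols. The authors deposited 1 linear intensity per probe set and array, with the background already subtracted; their software and scaling were not stated in what was used here.

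Values under 0 were set to 0, 16 was added, the log2 was taken and arrays were quantile normalized. The 64 control probe sets were left out of 22690, and 22626 were tested with limma 3.58.1 in R 4.3.3 (lmFit, eBayes, Benjamini-Hochberg). Each region was fitted on its 16 arrays with 4 group means, and regions were compared on 32 arrays with 8. Adding 16 understates the change of dim genes. On simulated data with 200 probe sets changed, 39% of changes of 0.5 and 91% of changes of 1 (log2) were recovered for CCI in control medulla. For genotype averaged over operation in medulla the shares were 81% and 97%. The adjusted p depends on how many probe sets change, and the real data gave 0 calls and 12 calls in these comparisons. The shares therefore do not measure how many changes would be found in the real data.

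Members are probe sets of 1 annotated symbol. The members and lists were chosen with earlier results of these data known. Full values are given for the brightest probe set of each role group and the brighter probe sets of Lcp1 and Cx3cr1. The second Lcp1 probe set and the called probe sets of C1qb and Laptm5 are given by means or differences. P2ry12, Ncf1, Lcp2 and Cst7, and the array code comparison through which Cx3cr1 is shown, were chosen after the values were seen. So were the Hox and midbrain lists. Consecutive array numbers and the design text tie the regions of an animal. Same-animal residuals correlated at 0.31 on average (15 of 16 above 0.1), other animals of the group at -0.10. The value for other animals is pulled below 0 because residuals of a group sum to 0. Both arrays of an animal also share the array code, so these values are not independent evidence for the pairing. Title and array number conflict for KO sham mice 3 and 4, and the latter was used. There were 0 identical pairs of arrays, and arrays of a group correlated at 0.962 to 0.989. Alternatives were another normalization, pseudocounts of 1 and 64, a filter on dim probe sets, a trended variance, 1 probe set per gene, blocks, fits within an array code and omissions of arrays.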

Additional observations from a re-analysis of the deposited data

Results flagged for a closer look

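Among 112 groups of 4 arrays tested for selected member probe sets, 8 held an array far from the other 3 by Dixon's criterion. By chance about 1 in 20 groups is marked. C1qa read 637 in control CCI medulla 2 (others 497 to 517). Cx3cr1 read 229.6 in control sham midbrain 2 (others 119.9 to 133), the sole array of the lower code in that group. Ly86 read 138 in control sham midbrain 4 (others 205 to 216) and 265 in KO CCI midbrain 2 (others 215 to 218). Spi1 read 47.5 in KO sham midbrain 4 (others 33.2 to 37.1). Cyba read 90.5 in KO sham midbrain 2 (others 71.2 to 71.4), the array with the high Actb ratio. C1qb read 369 in KO CCI medulla 4 (others 394 to 403). Laptm5 read 121 in KO sham medulla 4 (others 187 to 190.2).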

How the results depend on the processing

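The member counts of 0 for genotype, CCI and their interaction held in each of the 16 omissions of an array and in the 11 (medulla) or 12 (midbrain) other settings tried. The 0 counts of the 2 interactions with region held in 32 omissions and 13 other settings. The count of 2 for region lay between 2 and 3 in all of them, and the brighter Lcp1 probe set lay between -0.97 and -0.60 with an adjusted p of at most 0.000345, the other between -0.67 and -0.33 with at most 0.0249. For Ctss between regions the adjusted p lay between 0.00316 and 0.24 in limma. Ctss stayed uncalled in 23 of 32 omissions and in 5 of 13 other settings. The array code count of 4 was 4 to 7 over omissions of 1 array, 7 without KO sham midbrain 2 and 4, 2 in medulla alone and 0 in midbrain alone, where fewer arrays entered. The animal correlation of 0.15 was kept fixed in the alternatives of that fit.

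Arrays of the same title number in different groups of a region were not taken as pairs, since their residuals were not all correlated above 0.1: they averaged 0.09 in medulla (13 of 24 above 0.1) and 0.13 in midbrain (16 of 24), against -0.03 (16 of 72) and -0.04 (15 of 72) for arrays of other numbers. With the title number as a replicate block the member counts stayed at 0 for genotype and CCI and came to 3 for region. With 4 arrays per group, a change of 0.5 (log2) in CCI against sham would often be missed.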
